A study of Rattus norvegicus with 34 samples.

Results

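The plasminogen activation system was followed here through 6 genes, taken as a named family: the activators Plau and Plat, the zymogen Plg, the receptor Plaur, and the serpins Serpine2 and Serpinf1. Each was represented by 1 transcript cluster of the Affymetrix Rat Gene 1.0 ST array, so that all 6 of 6 were measured among 29214 transcript clusters on 34 arrays. The tissue was left ventricle (LV) and peripheral blood mononuclear cells (PBMCs) of male Wistar rats, 2 months after the proximal left coronary artery was tied (MI) or exposed without tying (sham). In LV there were 6 sham rats, 6 rats with a small MI (S-MI), 6 with a moderate MI (M-MI) and 5 with a large MI (L-MI), and in PBMCs 5 L-MI and 6 sham rats. No rat carried a transgene or received a drug as part of the comparison, and all rats underwent thoracotomy. RNA came from the whole LV in sham rats but only from the macroscopically intact part of the LV in MI rats, so that infarction and the part of the ventricle taken cannot be told apart between an MI group and sham. The descriptions of L-MI replicate 1 in LV and of L-MI replicate 1 in PBMCs speak of compensated injury, while title and infarct size say large. Both arrays were kept as L-MI.

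Plasmin is the protease that dissolves fibrin and cleaves matrix proteins. It circulates as the inactive precursor plasminogen, which is made mainly by the liver and is activated by tissue-type plasminogen activator (tPA, the product of Plat) and urokinase (uPA, the product of Plau). Urokinase binds a lipid-anchored receptor on the cell surface, encoded by Plaur. Serpine2 encodes protease nexin-1, a serpin that inhibits thrombin, urokinase and tPA in the extracellular space. Serpinf1 encodes pigment epithelium-derived factor (PEDF), a secreted protein that has the serpin fold but does not inhibit proteases, and that is known for blocking the growth of vessels. In the heart the system is known for its part in clearing fibrin and in the turnover of matrix during scar formation.

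Start-site regions of the members are shown for Serpine2 and Serpinf1, the 2 members that rose in failing hearts, and the 2 regions differ in composition. Sequences are from RefSeq (build GRCr8), 250 bases before to 50 bases after the start site used there, written 5′ to 3′ on the gene's strand, and 5 of the 6 members were matched. Capitals mark the GC box GGGCGG on either strand, which lies in 33.1% of 33469 rat regions of this length. The region of Serpine2 is chr9:88637153-88637452 (minus strand) and that of Serpinf1 is chr10:60760849-60761148 (minus strand).
Serpine2: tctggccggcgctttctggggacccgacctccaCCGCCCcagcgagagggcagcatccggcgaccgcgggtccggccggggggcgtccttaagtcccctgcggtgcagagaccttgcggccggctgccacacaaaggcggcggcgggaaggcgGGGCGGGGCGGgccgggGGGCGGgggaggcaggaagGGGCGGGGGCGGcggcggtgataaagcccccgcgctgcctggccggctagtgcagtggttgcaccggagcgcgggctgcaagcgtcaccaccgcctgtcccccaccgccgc
Serpinf1: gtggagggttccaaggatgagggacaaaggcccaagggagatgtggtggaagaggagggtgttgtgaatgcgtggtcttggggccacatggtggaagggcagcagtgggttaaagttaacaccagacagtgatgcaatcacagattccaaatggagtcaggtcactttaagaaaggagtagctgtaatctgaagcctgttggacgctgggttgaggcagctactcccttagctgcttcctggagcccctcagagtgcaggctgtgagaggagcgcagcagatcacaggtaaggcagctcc
Serpine2 had a GC content of 77.0%, against a median of 51.7% over all regions, and 6 GC boxes whose first bases lay between positions -217 and -55, some of them overlapping. Serpinf1 had a GC content of 54.3% and none of the 4 motifs that were searched. The GC box, CCAAT (in 37.5% of all regions) and TGANTCA (the AP-1 motif, in 7.33%) were searched on both strands. TATAAA (in 8.8%) was searched on the gene's strand only. Plau had 3 GC boxes at -122, -104 and -87 and a GC content of 61.0%, Plaur had 1 AP-1 motif at -83, and Plg had no match. These are matches of letters only, and binding was not measured.

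Levels are given as the authors' normalized signal on the log2 scale, where a difference of 1 is a doubling, and are compared only within a transcript cluster and a tissue, because probes differ in response and the tissues lie on different scales (array medians of 6.52 to 6.61 in LV and 6.97 to 7.01 in PBMCs). Arrays of a tissue correlated at 0.985 to 0.996 in LV and at 0.988 to 0.997 in PBMCs. A set of 4 arrays (replicates 4 and 6 of sham, 4 and 5 of S-MI) stood apart from the other 19 LV arrays on the first principal component, with scores of -137.8 to -112.4 against -52.0 to 165.2. Cardiomyocyte markers averaged 13.1 to 13.2 in every L-MI and sham ventricle. In PBMCs the T cell markers averaged 11.6 to 11.8 in L-MI rats and in sham rats.

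In LV, Serpinf1 and Serpine2 rose in rats with a large MI, and no member was called in rats with a moderate or small MI. A transcript cluster was called when its fold change was at least 1.3 and its Benjamini-Hochberg adjusted p over all 29214 clusters was at most 0.05 (limma, 1 model over the 23 LV arrays). In L-MI against sham, 2 of the 6 members were called higher and 0 lower, against 2.08% of all clusters called higher and 1.14% called lower. The median difference over the 6 members was 0.25 on the log2 scale, and that over all clusters was -0.01. In bulk tissue, more cells of a type and more RNA per cell cannot be told apart, nor can fewer cells and less RNA per cell.

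Serpinf1, the non-inhibitory serpin PEDF, showed the larger difference of the 2. Its log2 signal was 11.01, 10.56, 10.76, 10.61 and 11.08 in the 5 L-MI ventricles, against a lowest value of 9.82, a median of 9.85 and a highest value of 10.04 in the 6 sham ventricles. Every L-MI value was thus above every sham value, as it also was for 3.1% of all clusters. The means were 10.80 ± 0.23 in L-MI (SD, n = 5) and 9.90 ± 0.10 in sham (SD, n = 6), a difference of 0.90 ± 0.09 (SE) or 1.87-fold (limma, adjusted p = 2.02e-06). Without the 4 arrays that stood apart the difference was 0.88, and without the LV L-MI array described as compensated it was 0.85. Leaving out each array in turn gave 0.83 to 0.96.

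Serpine2, the thrombin and plasminogen activator inhibitor protease nexin-1, also rose. It read 9.68, 9.48, 9.54, 9.32 and 10.07 in L-MI ventricles, against a lowest value of 8.57, a median of 8.81 and a highest value of 9.03 in sham ventricles. The groups did not overlap. The means were 9.62 ± 0.28 (SD, n = 5) in L-MI and 8.81 ± 0.15 (SD, n = 6) in sham, and the difference was 0.81 ± 0.13 (SE) or 1.75-fold (limma, adjusted p = 2.09e-04). L-MI replicate 5 gave the highest value of both serpins, and without it the differences were 0.69 for Serpine2 and 0.83 for Serpinf1, with adjusted p = 8.70e-04 and 9.32e-06 by limma. Without the 4 arrays apart Serpine2 differed by 0.82 and without L-MI replicate 1 by 0.79.

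**Figure D1:**
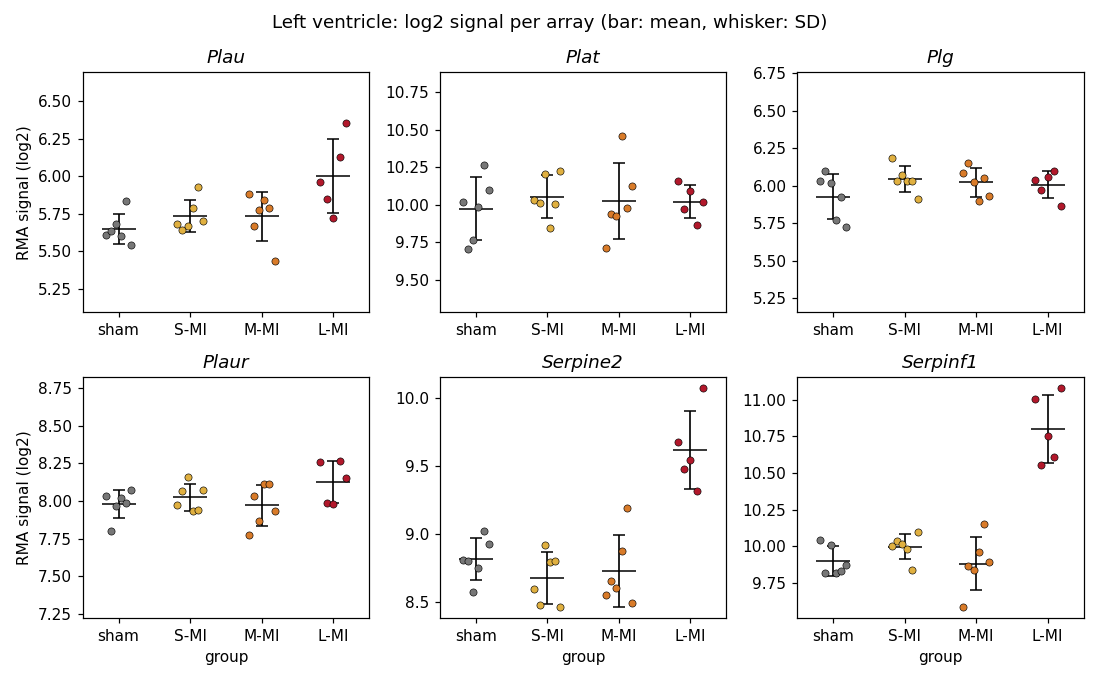
Log2 signal (RMA, vertical axis) of the 6 members in each LV array, by infarct size (horizontal axis); points are arrays, the bar is the group mean and the whisker the SD. The 5 L-MI points lie above all other points for Serpine2 (9.32 to 10.07) and Serpinf1 (10.56 to 11.08), and overlap the other groups for the other 4 members.

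Plau, the urokinase gene, gave a smaller difference that did not reach the fold threshold. It read 5.96, 5.85, 5.72, 6.13 and 6.35 in L-MI ventricles, against a lowest value of 5.54, a median of 5.62 and a highest value of 5.83 in sham ventricles. The groups overlapped through L-MI replicate 3 and sham replicate 5. The difference was 0.35 ± 0.09 (SE), with a 95% interval of 0.16 to 0.55, or 1.28-fold (limma, adjusted p = 0.0163; exact two-sided permutation p = 0.00649). By its adjusted p alone, with no demand on the fold, Plau would be counted as well, as were 4.57% of all clusters on the higher side. The adjusted p was above 0.05 with only L-MI and sham arrays in the model (0.0521), without L-MI replicate 4 (0.0530), without L-MI replicate 5 (0.0639) and without the 4 arrays apart (0.0823). Leaving out sham replicate 5, L-MI replicate 2 or L-MI replicate 3 raised the difference to 0.39, 0.39 and 0.42, past the fold threshold. Plau was also a dim transcript cluster, with only 35.4% of all clusters dimmer in LV.

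Plaur, the urokinase receptor, read 8.26, 7.99, 7.98, 8.26 and 8.15 in L-MI ventricles, against a lowest value of 7.80, a median of 8.003 and a highest value of 8.07 in sham ventricles. Of the 5 L-MI values, 3 were above the sham range and the other two were within it. The difference of 0.15 ± 0.07 (SE) had a 95% interval of 0.00 to 0.30 and did not pass (limma, adjusted p = 0.219).

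Plat, encoding tPA, was bright in LV, with 92.0% of all clusters dimmer. Its signal was 10.16, 9.98, 10.09, 9.87 and 10.02 in L-MI ventricles, against a lowest value of 9.71, a median of 10.002 and a highest value of 10.27 in sham ventricles, and the L-MI values lay inside the sham range. The difference was 0.05, with a 95% interval of -0.18 to 0.27 (limma, adjusted p = 0.865), so that a change of 1.3-fold lay outside the interval. Plg, whose known main source is the liver, read 6.04, 5.97, 6.06, 6.10 and 5.87 in L-MI ventricles, against a lowest value of 5.73, a median of 5.97 and a highest value of 6.09 in sham ventricles, so that L-MI replicate 4 lay just above the sham range and the other L-MI values within it. Its difference was 0.08, with a 95% interval of -0.06 to 0.22 (limma, adjusted p = 0.567). Plg was a dim transcript cluster in LV, with only 39.8% of all clusters dimmer, so that a low level cannot be told from background. The 6 hepatocyte markers averaged 6.06 to 6.27 in L-MI and 6.02 to 6.13 in sham ventricles, and 0 of 6 were called.

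Moderate and small infarcts gave no call in the family. In M-MI against sham, 0 of 6 members passed, as did 0% of all clusters, and the smallest adjusted p of a member was 0.754 (limma); 0 of 6 had an unadjusted p of at most 0.05, against 7.03% of all clusters. In S-MI against sham, 0 of 6 members passed and 0% of all clusters did, the smallest adjusted p was 0.810, and 0 of 6 were under an unadjusted p of 0.05, against 6.33% of all clusters.

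The 2 serpins gave differences of low size in these groups. Serpinf1 had a lowest, median and highest value of 9.84, 10.01 and 10.10 in S-MI and of 9.59, 9.88 and 10.15 in M-MI ventricles. Against sham it differed by 0.10 (95% interval -0.08 to 0.28) in S-MI and by -0.02 (-0.20 to 0.17) in M-MI. Serpine2 had a lowest, median and highest value of 8.46, 8.70 and 8.92 in S-MI and of 8.49, 8.63 and 9.19 in M-MI ventricles, and differed from sham by -0.14 (-0.39 to 0.12) in S-MI and by -0.09 (-0.34 to 0.17) in M-MI. The upper ends of these 4 intervals lay below the fold threshold of 1.3, which is 0.38 on this scale, and M-MI replicate 5 gave the highest M-MI value of both genes.

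Set directly against each other, large infarcts differed from the smaller ones in the same 2 genes. In L-MI against M-MI, 2 of 6 members were called higher (1.99% of all clusters), with differences of 0.92 for Serpinf1 (limma, adjusted p = 1.64e-06) and 0.89 for Serpine2 (adjusted p = 9.43e-05). In L-MI against S-MI, 2 of 6 were called higher (1.57% of all clusters), with differences of 0.80 for Serpinf1 (adjusted p = 1.37e-05) and 0.94 for Serpine2 (adjusted p = 8.03e-05). These contrasts share the L-MI arrays with the comparison to sham and are not independent of it. The lowest L-MI value lay above the highest M-MI and S-MI value for both genes, as it did for 2.81% of all clusters against M-MI and for 2.05% against S-MI. Plau differed by 0.27 from M-MI (adjusted p = 0.0821) and by 0.27 from S-MI (adjusted p = 0.0841), and 0 of 6 members passed between M-MI and S-MI, as did 0% of all clusters (smallest adjusted p = 0.591; 0 of 6 under an unadjusted p of 0.05, against 12.5% of all clusters).

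**Figure D2:**
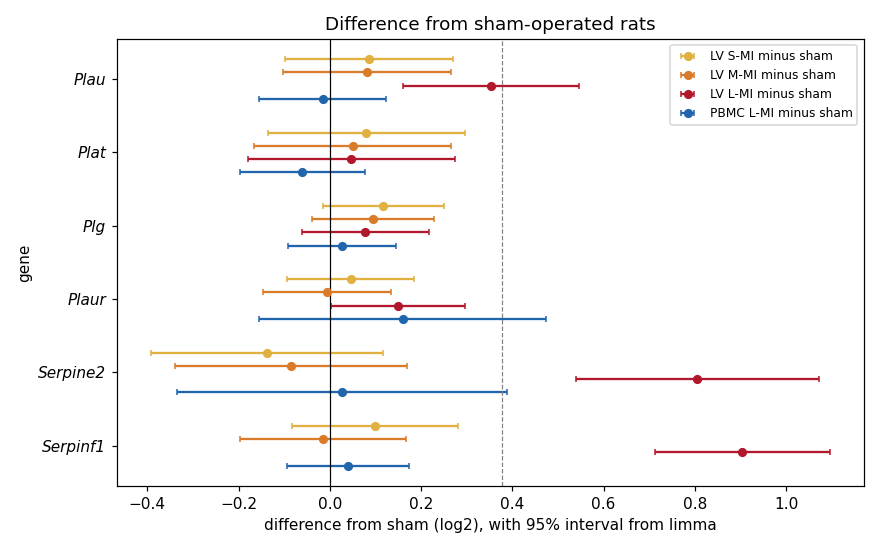
Difference of each infarct group from sham (horizontal axis, log2 scale) for the 6 members, with 95% intervals from limma; the dashed line marks a 1.3-fold rise. The L-MI intervals in LV lie wholly above that line for Serpine2 and Serpinf1, with lower ends of 0.54 and 0.71, and the PBMC intervals include 0 for all 6 members.

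In PBMCs of rats with a large MI, no member was called. A call in PBMCs needed a 1.2-fold difference with p up to 0.05 before adjustment, which 0.924% of all clusters met in either direction. Of the 6 members 0 met it, the adjusted p of every member was 0.9997 (limma), and 0 of 6 had p up to 0.05 before adjustment, against 3.77% of all clusters. Plaur, which monocytes and other white cells carry, had the largest difference of the 6. It read 9.499, 9.01, 9.53, 9.07 and 9.59 in L-MI PBMCs, against a lowest value of 8.89, a median of 9.15 and a highest value of 9.65 in sham PBMCs. The L-MI values lay inside the sham range, 3 of them close together at the upper end and the other two below the sham median. The difference was 0.16 ± 0.15 (SE), with a 95% interval of -0.15 to 0.47 (exact two-sided permutation p = 0.351). A 1.2-fold rise, 0.263 on this scale, lay inside this interval and inside that of Serpine2 (-0.34 to 0.39).

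Serpinf1 was dim in PBMCs, with 22.95% of all clusters dimmer. It read 5.42, 5.65, 5.49, 5.68 and 5.49 in L-MI PBMCs, against a lowest value of 5.40, a median of 5.50 and a highest value of 5.60 in sham PBMCs, and differed by 0.04 (95% interval -0.09 to 0.17). Serpine2 read 7.16, 6.55, 6.42, 6.54 and 6.95 in L-MI PBMCs, against a lowest value of 6.17, a median of 6.79 and a highest value of 7.04 in sham PBMCs, and differed by 0.03 (-0.34 to 0.39). Its values spread over more than those of Serpinf1 in both groups, with an SD of 0.32 in L-MI and of 0.32 in sham. Plau, Plat and Plg differed by -0.02 (-0.15 to 0.12), -0.06 (-0.20 to 0.08) and 0.03 (-0.09 to 0.15), and their groups overlapped. Plau and Plg were dim in PBMCs as well, with 30.5% and 35.8% of all clusters dimmer.

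**Figure D3:**
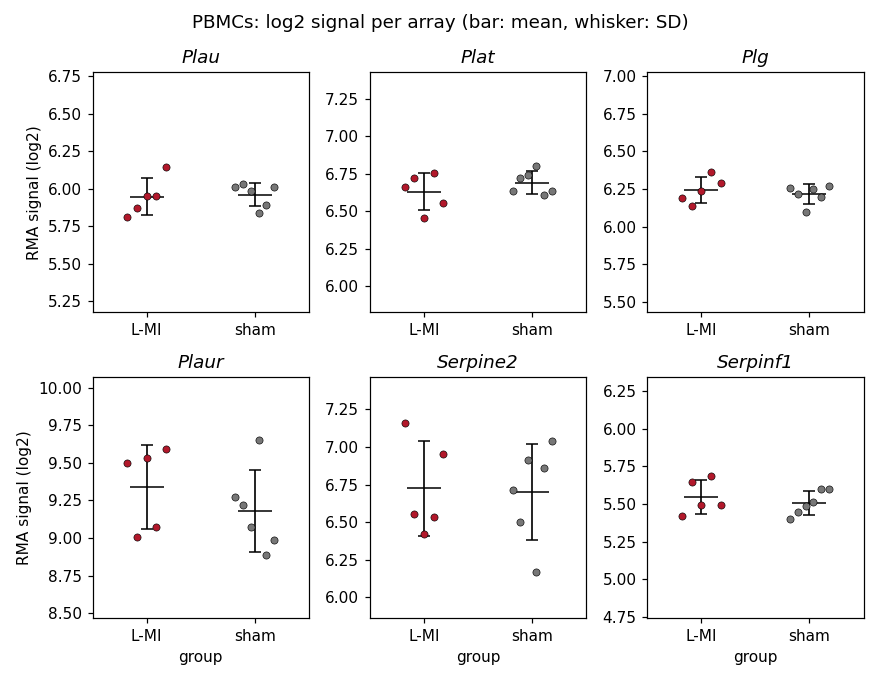
Log2 signal (RMA, vertical axis) of the 6 members in each PBMC array of L-MI and sham rats (horizontal axis); points are arrays, the bar is the group mean and the whisker the SD. The groups overlap for every member, and Plaur and Serpine2 vary most between rats.

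Whether the response to a large MI differed between the tissues was tested as an interaction over 22 arrays, with a call at an adjusted p of at most 0.05. For Serpinf1 the difference in LV exceeded that in PBMCs by 0.86 ± 0.12 (SE; 95% interval 0.62 to 1.11; limma, adjusted p = 1.58e-04), and 1 of 6 members was called, against 1.39% of all clusters called on the higher side. For Serpine2 the excess was 0.78 ± 0.22 (SE; 0.33 to 1.23) and missed the threshold (adjusted p = 0.0578). It passed with the replicate number as a block (adjusted p = 0.0118 by limma) and with the replicate number within a group taken as the rat, a setting chosen after seeing the data (0.0480). It also passed without LV L-MI replicate 2 (0.0498) or 4 (0.0458), PBMC sham replicate 4 (0.0180) or PBMC L-MI replicate 1 (0.0228), and had an adjusted p of 0.116 without LV L-MI replicate 5. For Plau the excess was 0.37 (0.11 to 0.62; adjusted p = 0.133), and it passed without LV L-MI replicate 3. Both tissues probably came from the same rats, but which arrays share a rat is not given, and the model took the arrays as independent.

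The other genes of the system were grouped by role, and 59 of 66 listed genes were measured. In LV of L-MI rats 13 of them were called higher and 2 lower than in sham, against 2.08% of all clusters called higher and 1.14% called lower. No gene of any role list was called in M-MI or S-MI against sham, or in L-MI PBMCs against sham PBMCs.

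Among activators and cofactors of fibrinolysis, 3 of 11 measured genes rose and 1 fell, with a median difference of 0.13. Anxa2 and S100a10, which encode the 2 subunits of a cell surface complex that binds plasminogen and tPA, rose by 0.45 (adjusted p = 0.00111) and 0.43 (adjusted p = 0.00204). Anxa2 averaged 10.74 ± 0.15 in L-MI (SD, n = 5) and 10.29 ± 0.11 in sham (SD, n = 6), and S100a10 9.88 ± 0.17 in L-MI and 9.46 ± 0.08 in sham. Mrc2, a collagen receptor also known as uPAR-associated protein, rose by 0.39 (adjusted p = 0.00137), and this call ended, by the fold threshold, without sham replicate 2 or 5 or without L-MI replicate 1 or 5 (0.32 to 0.38), and with median centring (0.36). Vtn, encoding vitronectin, the matrix ligand of the urokinase receptor, fell by 0.50 (adjusted p = 1.01e-04), with means of 9.10 ± 0.08 in L-MI and 9.61 ± 0.10 in sham.

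Among receptors that clear or relay these proteases, 3 of 16 measured genes rose and 0 fell, with a median difference of 0.17. Lrp1, the endocytic receptor that takes up complexes of proteases with serpins, protease nexin-1 complexes included, rose by 0.67 (adjusted p = 1.45e-05), with means of 10.28 ± 0.24 in L-MI and 9.62 ± 0.07 in sham. Itgam, the alpha chain of the leukocyte integrin Mac-1 and also one of the macrophage markers below, rose by 0.49 (adjusted p = 0.0131), and F2rl1, encoding protease-activated receptor PAR2, rose by 0.51 (adjusted p = 0.0346). The call of F2rl1 ended without any one of sham replicates 1 to 4 or L-MI replicates 1, 3 and 5, with adjusted p up to 0.117, and also with no moderation of variances (0.0544) and without the 4 arrays apart (0.0658). Itgb2, the beta chain of Mac-1, was under the fold threshold in LV (0.35, adjusted p = 0.0212) but its difference in LV exceeded that in PBMCs by 0.37 (adjusted p = 0.0427). Pnpla2, whose product has been described as a PEDF receptor, differed by -0.24 (adjusted p = 0.0438), short of the fold threshold.

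Among the other inhibitors, 1 of 14 measured genes rose and 0 fell, with a median difference of 0.05. Serping1, encoding the C1 inhibitor, rose by 0.55 (adjusted p = 6.61e-05), with means of 11.34 ± 0.14 in L-MI and 10.79 ± 0.13 in sham. Serpinf2, which encodes alpha2-antiplasmin and is the immediate neighbour of Serpinf1 on chromosome 10, differed by -0.09 (adjusted p = 0.594).

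Among substrates and matrix targets of plasmin and its activators, 6 of 18 measured genes rose and 1 fell, with a median difference of 0.20. Fn1 (fibronectin) rose by 1.56 (adjusted p = 2.35e-06), Thbs1 (thrombospondin-1) by 1.42 (adjusted p = 1.90e-04) and F13a1 (the fibrin cross-linking enzyme factor XIII, subunit A) by 0.96 (adjusted p = 4.71e-05). Of the matrix metalloproteinases, Mmp2 rose by 0.48 (adjusted p = 5.80e-05) and Mmp14, which activates it, by 0.42 (adjusted p = 0.0135), the second of these not without sham replicate 2 (0.37) or L-MI replicate 5 (0.34, adjusted p = 0.0549). Tgfb1, whose latent product plasmin can release, rose by 0.40 (adjusted p = 4.98e-04), short of the fold threshold without sham replicate 5 (0.36) or L-MI replicate 1 (0.36) or 5 (0.35), and with median centring (0.37). Bdnf, whose precursor plasmin cleaves, fell by 0.39 (adjusted p = 7.65e-04), short of the threshold without sham replicate 4 (-0.37) or 6 (-0.36) or L-MI replicate 1 (-0.35), without the 4 arrays apart (-0.33) and with array weights (-0.37). Mmp13 and Mmp9 differed by 0.93 and 0.78 without passing (adjusted p = 0.113 and 0.141), and their L-MI values were widely spread, at 3.72 to 7.03 and 5.70 to 8.75, against 3.56 to 3.95 and 5.78 to 6.02 in sham. The 3 fibrinogen chains Fga, Fgb and Fgg differed by 0.05, -0.16 and -0.26 and did not pass (adjusted p of at least 0.413). Their signals were low, with sham means of 4.14, 4.99 and 5.13 against LV array medians of 6.52 to 6.61.

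**Figure D4:**
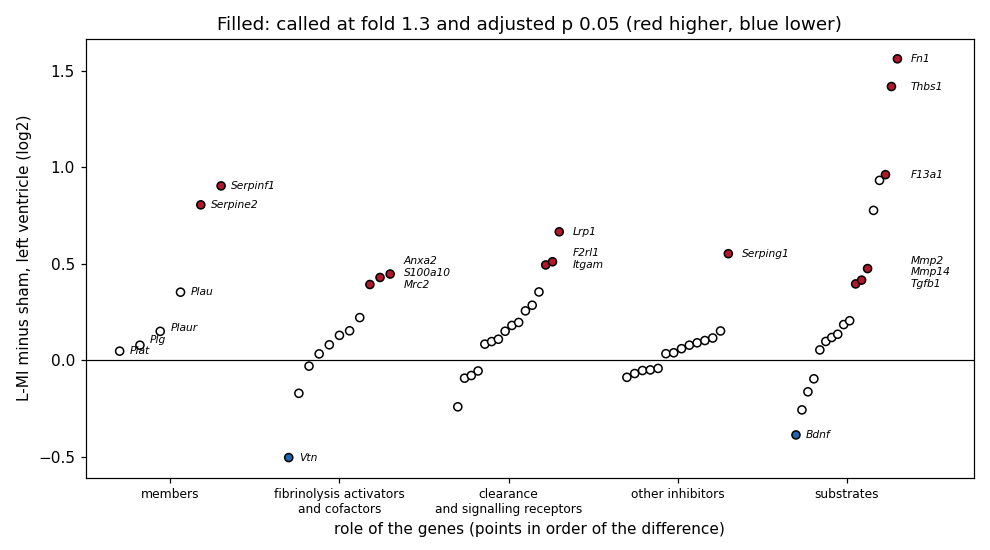
Difference between L-MI and sham in LV (vertical axis, log2 scale) for the 6 members and the 59 other measured genes of the system by role (horizontal axis); filled points were called, red higher and blue lower. Fn1 (1.56) and Thbs1 (1.42) lie highest, Vtn (-0.50) lowest.

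Markers of several cell types moved with the serpins in LV. Of 12 macrophage markers 12 were called higher in L-MI than in sham, with a mean log2 signal of 8.55 to 9.17 in L-MI and 7.99 to 8.28 in sham ventricles. Of 10 fibroblast markers 7 were called higher, with a mean of 9.01 to 9.64 in L-MI and 8.37 to 8.58 in sham. Pdgfra, Tcf21 and Dcn were the 3 fibroblast markers not called, with differences of 0.13, 0.12 and 0.16. Smooth muscle and pericyte markers had 2 of 8 called higher (9.52 to 9.78 in L-MI, 9.29 to 9.45 in sham), and endothelial (10.07 to 10.16 in L-MI, 10.14 to 10.30 in sham) and cardiomyocyte (13.07 to 13.15 in L-MI, 13.17 to 13.21 in sham) markers had 0 of 9 and 0 of 10 called. The means of the smooth muscle and pericyte markers were all higher, and those of the cardiomyocyte markers all lower, in L-MI than in sham ventricles. Of the other lists, 4 of 6 monocyte markers (each also a macrophage marker) and 1 of 7 T cell markers were called higher, 1 of 6 natural killer cell markers was called lower, and 0 of 9 neutrophil, 0 of 4 mesothelial, 0 of 2 B cell and 0 of 3 platelet markers were called. In PBMCs 1 of 6 natural killer cell markers and none of the other lists' markers was called, 0 of 12 macrophage and 0 of 10 fibroblast markers among them. The part of cell composition in the rise of Serpinf1 and Serpine2 was not tested.

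**Figure D5:**
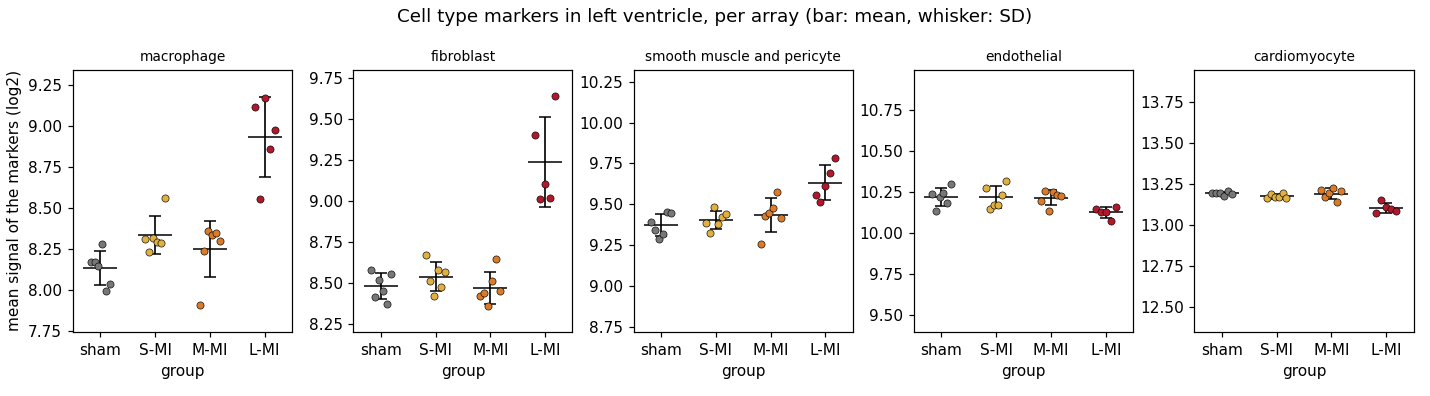
Mean log2 signal of the markers of 5 cell types (vertical axis) in each LV array by infarct size (horizontal axis); points are arrays, the bar is the mean and the whisker the SD, and every panel spans the same range. Macrophage and fibroblast markers of the L-MI arrays lie above those of sham (lowest 8.55 and 9.01 in L-MI, highest 8.28 and 8.58 in sham).

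How the members varied between rats of the same group was described over the 23 LV arrays after each group's mean had been taken off. Serpinf1 varied with the mean of the fibroblast markers (r = 0.80) and of the macrophage markers (r = 0.62), and inversely with that of the cardiomyocyte markers (r = -0.63). Serpine2 varied with the smooth muscle and pericyte markers (r = 0.67) and the fibroblast markers (r = 0.55), and little with the macrophage markers (r = 0.12). Serpinf1 also varied with the smooth muscle and pericyte markers (r = 0.51). Serpine2 had negative r with the mesothelial (-0.42) and the cardiomyocyte markers (-0.38). L-MI replicate 5 and M-MI replicate 5 were the highest of their groups for both serpins and for the fibroblast and the smooth muscle and pericyte means. The correlations without these arrays were not computed. Plau had r = 0.34 with the fibroblast, 0.35 with the smooth muscle and pericyte, and -0.18 with the macrophage markers. Its largest by size over the marker lists were -0.53 with the natural killer cell and -0.37 with the T cell markers. These correlations are over arrays of 4 groups that share a normalization, and no test is attached to them.

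Between the members themselves 15 relations were computed on the same deviations, and none passed after adjustment (smallest adjusted permutation p = 0.144 for Pearson's r and 0.168 for Spearman's rho, 100000 permutations within groups). The highest was that of Plaur with Serpinf1 (r = 0.57, permutation p = 0.0244; rho = 0.54, p = 0.0225; r = 0.46 without the 2 farthest arrays). The 2 farthest arrays were those farthest from the median of the first-named gene of a pair. Those farthest for the second gene were not sought. Plat and Plaur gave r = 0.54 (permutation p = 0.0131; rho = 0.52, p = 0.0179; r = 0.53 without the 2 farthest). Serpine2 and Serpinf1 gave r = 0.50 (permutation p = 0.0496; rho = 0.28, p = 0.235). This r was 0.17 without the 2 arrays farthest for Serpine2, and 0.57 without the 4 arrays that stood apart. Plat and Plg went in opposite directions (r = -0.51, permutation p = 0.0288; rho = -0.45, p = 0.0479; r = -0.50 without the 2 farthest).

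The genes whose pattern was most like that of each member were found by Pearson's r over the 23 LV arrays. Over the signals themselves, group differences included, Serpinf1 was closest to Fstl1 (r = 0.98), Col14a1 (0.97) and Postn (0.97), which encode secreted matrix-associated proteins, and Serpine2 to Cilp (0.95), Thy1 (0.93) and Raph1 (0.93). Plau was closest to Fgfr2 (0.79), Bglap (0.78) and Tbx15 (0.77). With the group means taken off, the closest were Pmp22 (0.88), Sipa1l1 (0.86) and Axl (0.84) for Serpinf1, and Azin1 (0.87), Cilp (0.81) and Becn1 (0.80) for Serpine2. Cilp, encoding a cartilage and cardiac matrix protein, was thus near Serpine2 in both rankings, and itself differed by 1.23 between L-MI and sham. For Plat, Plaur and Plg the closest on this measure were Ncoa3 (0.86), Chst14 (0.83) and Tmsb4x (0.82), and for Plau it was Tbx15 (0.72).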

How the data were processed

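Total RNA was hybridized to Affymetrix Rat Gene 1.0 ST arrays, 1 array per sample. The deposited values are log2 signals per transcript cluster, which the authors made with RMA and Partek (versions not given in the sources used here); no source names the base of the logarithm, and base 2, the usual output of RMA, was assumed. The 2 tissues were apparently normalized apart. Genes were named from the platform annotation where it gives 1 symbol (15310 of 29214 transcript clusters). Linear models were fitted with limma 3.58.1 in R 4.3.3 over 23 LV arrays and over 11 PBMC arrays, and as an interaction over 22 arrays, with p-values adjusted by Benjamini-Hochberg over all 29214 transcript clusters. For single members an exact two-sided permutation p of the group means (462 splits) is given as well. The number of arrays limits the precision. Replicates are separate rats per the labels. Promoters and figures were handled with Python 3.11.15 and matplotlib 3.10.9.

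The members, the role lists and the marker lists were chosen with earlier results of these data known. Named were all 6 members, in each role list up to 6 called genes and any called in another comparison, and the 3 genes most like each member; Pnpla2, Serpinf2, Mmp9, Mmp13, the fibrinogen chains, 3 fibroblast markers and Itgb2 under its LV value were added after their values were seen. Alternatives were models without moderation, with only the compared groups, limma-trend, array weights, after removal of the 30% dimmest transcript clusters, after median centring or a second quantile normalization, with other thresholds, with a block for the replicate number, and without single arrays or the 4 that stood apart. The scripts were tested on simulated data. Same-numbered arrays of L-MI and sham LV, which are different rats, correlated at -0.26 to -0.00. Between tissues, same-numbered arrays correlated at -0.05 to 0.11 in L-MI and at 0.00 to 0.14 in sham. These values cannot decide whether such arrays share a rat. The labels do not pair the numbers, and the main models did not either.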

Additional observations from a re-analysis of the deposited data

Results flagged for a closer look

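The response of Serpinf1 to a large MI differed between the tissues by the test of the difference itself. It was 0.86 larger in LV than in PBMCs on the log2 scale (limma interaction, adjusted p = 1.58e-04), with all 5 L-MI ventricles above all 6 sham ventricles and overlapping groups in PBMCs. Over the alternatives the difference was 0.79 to 0.92 and the adjusted p between 2.97e-05 and 0.00119. Serpinf1 was dim in PBMCs, with 22.95% of transcript clusters dimmer, and the effect of that on the difference was not tested. In 36 combinations of member and group, 0 held an array flagged by Dixon's ratio, the gap of an end value to the next over the group's range. With 5 or 6 arrays per group this rule flags only extreme gaps, and single arrays can still weigh on a difference.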

How the results depend on the processing

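Of 57 gene differences followed through the alternatives, 22 were called. Of the alternative values 45 turned direction, 0 of them of a called gene, and 25 lost a call, all of F2rl1, Bdnf, Mrc2, Tgfb1 or Mmp14 in L-MI against sham. Serpinf1 and Serpine2 kept their calls against sham, M-MI and S-MI in every alternative run. In L-MI against sham, 2 to 3 members were called when single arrays were left out. The number of members called in the comparison of tissues was 2 in place of 1 with array weights, without the 30% dimmest clusters, with repeated quantile normalization and with the replicate number as a block, where Serpine2 joined at an adjusted p of 0.0271, 0.0415, 0.0456 and 0.0118. It was also 2 with the replicate number within a group taken as the rat (0.0480; chosen after seeing the data), and 1 to 2 when single arrays were left out. The replicate block changed no other call of a member; same-numbered arrays were not paired by the labels, and in no pair of groups did every one correlate above 0.1. In LV 0 of 5 L-MI arrays and 3 of 6 S-MI arrays correlated best with their own number in sham (r of -0.26 to -0.00 and -0.11 to 0.26). Between tissues these were 1 of 5 in L-MI (-0.05 to 0.11) and 3 of 6 in sham (0.00 to 0.14). In L-MI against sham, all clusters called numbered 941 (608 higher), 840 to 1196 without single arrays, 955 (524 higher) with median centring and 2769 without a fold threshold, where 7 receptor genes were called.

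Directions turned only for differences near 0. When single arrays were left out, the ranges were -0.00575 to 0.106 for Plat in L-MI against sham, -0.0421 to 0.0330 for Plaur, -0.0689 to 0.0441 for Serpinf1 and -0.0370 to 0.112 for Plat in M-MI against sham, -0.0647 to 0.0846 for Plat and -0.0412 to 0.0186 for Plg in L-MI against M-MI, and -0.0742 to 0.00694 for Plat in L-MI against S-MI. In PBMCs they were -0.0831 to 0.102 for Serpine2, -0.0640 to 0.0184 for Plau and -0.00320 to 0.0539 for Plg, and -0.103 to 0.0534 for Plaur between tissues. Without the 4 arrays apart, the values were -0.0115 for Plg in L-MI against sham, 0.0273 for Plaur in M-MI against sham and -0.0158 for Plau in S-MI against sham. Repeated quantile normalization gave 0.0109 for Plaur and 0.00774 for Serpinf1 in M-MI against sham, and 0.00834 for Plat in L-MI against M-MI, which was 0.0408 with array weights and 0.0237 with the replicate block. The cause was not tested. Averaging several clusters of a gene could not be run, since each member had 1.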
